A study of Mus musculus with 18 samples.

Results

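The genes of respiratory complexes I and III, together with the protein-coding genes of the mitochondrial genome, were followed in RNA-seq libraries of mESCs and embryoid bodies (EBs). Members were all protein-coding genes whose symbols begin with Nduf, Uqcr, mt-Nd, mt-Co, mt-Cytb or mt-Atp. This gave 67 of the 55487 genes in the count table, of which 54 lie on nuclear chromosomes and 13 on the mitochondrial genome. The nuclear members comprised 7 core subunits of complex I, 29 accessory subunits of complex I, 8 assembly factors named Ndufaf, 8 subunits of complex III, and the paralogues Ndufa4 and Ndufa4l2. The mitochondrial members comprised 7 complex I subunits (mt-Nd genes), cytochrome b of complex III (mt-Cytb), 3 subunits of complex IV (mt-Co genes) and 2 subunits of the ATP synthase (mt-Atp genes). All 67 had enough counts to be tested.

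Complex I takes electrons from NADH and complex III passes them from ubiquinol to cytochrome c, and both pump protons across the inner mitochondrial membrane. Their subunits are made by 2 genomes. The mitochondrial genome is transcribed as long RNAs that are cut into mRNAs, tRNAs and rRNAs, while nuclear members are transcribed one by one and their proteins are imported. Naive mESCs are known to use both glycolysis and respiration, and primed cells to lean on glycolysis.

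The libraries came from E14TG2a mouse embryonic stem cells. IκBα-KO clones were made with Cas9 and 2 guides against exon 1 of Nfkbia, the gene of the NF-κB inhibitor IκBα, and IκBα-WT clones received scrambled guides and were likewise grown from sorted cells. The 3 WT and 3 KO mESC libraries were from cells in Serum/LIF (0 hr). The 6 libraries of EBs at 48 hr and the 6 at 96 hr were from the same line after removal of LIF, the cytokine that holds mESCs undifferentiated, and each stage holds 3 WT and 3 KO samples. The columns of the EB libraries carry clone codes (D4, E14, E2, E3, H7, H9) that the labels do not tie to a genotype, so EBs were compared by stage with both genotypes together and the EB spread includes any genotype difference.

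Each library held between 28287582 and 40904247 counts. Nfkbia, the targeted gene, had 34.2, 35.1 and 25.3 CPM in WT mESCs and 10.2, 9.44 and 10.1 CPM in KO mESCs, where CPM is the usual depth-scaled count, here after TMM scaling. The 10 pluripotency markers summed to between 3410 and 4420 CPM in mESCs, 1520 to 2380 CPM at 48 hr and 724 to 1730 CPM at 96 hr. The 5 primitive streak and mesoderm markers summed to between 14.6 and 1070 CPM at 96 hr and to at most 72.0 CPM before. In bulk libraries of this kind, fewer cells of a type and less RNA per cell cannot be told apart. Clone E3 stood apart at 96 hr, with the highest share of both mitochondrial and nuclear members, so the numbers of mitochondrial and of nuclear members called at 96 hr are also given without it.

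A stretch of chromosome 1 carries near-identical copies of part of the mitochondrial genome, which bears on what could be counted. Only uniquely mapped reads were counted, and a read that matches both places equally well has no unique place. Of the 125-base windows (the read length) of mt-Co2, mt-Atp6, mt-Co3, mt-Nd3 and mt-Nd4l, between 97.3% and 99.8% were also present in another annotated transcript. The share was 60.0% for mt-Nd4, 26.7% for mt-Co1, 0.5% for mt-Nd2 and 0% for mt-Nd1, mt-Nd5, mt-Nd6, mt-Cytb and mt-Atp8. The 7 annotated copies lie side by side on the minus strand of chromosome 1 (GRCm38, 24611535 to 24616197). mt-Atp8 (chromosome M, 7766 to 7969) has no annotated copy, but the part of chromosome 1 between the copies of its neighbours mt-Co2 and mt-Atp6 has no annotated transcript and was not read here.

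The first 100 bases of mt-Atp6 (chrM:7927-8026) and of its copy Gm10925 (chr1:24614552-24614651) are shown because they are identical, as are all 678 bases that could be compared. The first 100 bases of mt-Nd3 (chrM:9459-9558) and of its copy Gm28438 (chr1:24613020-24613119) are shown because they hold the only difference in 345 bases, T3C counted from the first base of mt-Nd3, which is given in capitals. All are from GENCODE transcripts of GRCm38, written 5′ to 3′ along the transcript.
mt-Atp6: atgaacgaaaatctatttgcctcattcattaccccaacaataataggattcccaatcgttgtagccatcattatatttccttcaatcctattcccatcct
Gm10925: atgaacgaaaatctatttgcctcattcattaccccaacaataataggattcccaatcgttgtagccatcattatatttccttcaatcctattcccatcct
mt-Nd3: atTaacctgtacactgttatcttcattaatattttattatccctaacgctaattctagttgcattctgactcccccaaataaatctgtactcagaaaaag
Gm28438: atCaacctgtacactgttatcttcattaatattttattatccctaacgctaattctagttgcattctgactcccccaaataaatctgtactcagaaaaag

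Promoters of 45 of the 54 nuclear members could be matched in the RefSeq table (GRCm38.p6), each 300 bases long, with 250 bases before the start and 50 after it. They were searched on both strands for the NRF1 motif (the letters in capitals in the Uqcrc1 promoter), CCGGAAG of the ETS factor GABPA, AAGATGGC of YY1 and ACGTG of the hypoxia response element. NRF1 and GABPA are known activators of nuclear respiratory genes. The NRF1 letters were in the promoters of 4 of the 45 members (8.9%) and of 1.1% of 27025 genes. The YY1 letters were in 8 members (17.8%) and 3.2% of genes, the GABPA letters in 8 members (17.8%) and 9.9% of genes, and the hypoxia letters in 8 members (17.8%) and 21.8% of genes. Ndufa4l2 was among the members without a matched promoter, so it was not searched for any of these letters. No member promoter had matches of different motifs that shared a base. Promoters of Uqcrc1 (NRF1 letters, chr9:108936398-108936697, plus strand), Ndufs7 (YY1 letters, chr10:80249199-80249498, plus strand) and Ndufs8 (GABPA letters on the other strand, chr19:3912725-3913024, minus strand) are shown with the matches in capitals, because these genes recur in the comparisons below.
Uqcrc1: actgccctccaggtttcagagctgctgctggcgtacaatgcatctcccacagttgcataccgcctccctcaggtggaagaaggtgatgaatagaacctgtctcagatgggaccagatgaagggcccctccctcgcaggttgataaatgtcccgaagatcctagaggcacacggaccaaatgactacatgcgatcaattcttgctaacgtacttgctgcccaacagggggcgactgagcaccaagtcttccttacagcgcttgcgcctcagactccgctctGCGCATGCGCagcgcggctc
Ndufs7: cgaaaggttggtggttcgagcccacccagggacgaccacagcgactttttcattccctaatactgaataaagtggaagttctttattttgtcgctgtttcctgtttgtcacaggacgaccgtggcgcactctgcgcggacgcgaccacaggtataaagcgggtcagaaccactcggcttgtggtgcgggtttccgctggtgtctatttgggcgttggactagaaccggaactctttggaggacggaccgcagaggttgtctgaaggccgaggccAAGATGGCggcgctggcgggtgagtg
Ndufs8: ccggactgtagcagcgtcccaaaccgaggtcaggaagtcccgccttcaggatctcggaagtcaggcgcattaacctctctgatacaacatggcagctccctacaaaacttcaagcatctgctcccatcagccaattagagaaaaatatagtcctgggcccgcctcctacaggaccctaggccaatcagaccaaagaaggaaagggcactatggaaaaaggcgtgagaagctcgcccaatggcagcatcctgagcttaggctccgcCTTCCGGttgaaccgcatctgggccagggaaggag

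The mitochondrial members took a smaller share of all counts at each later stage, while the share of the nuclear members moved little. The 13 mitochondrial members held 2.19%, 2.17% and 1.71% of the counts in WT mESCs and 2.01%, 2.04% and 1.91% in KO mESCs. At 48 hr they held between 1.27% and 1.72% (median 1.47%), and at 96 hr between 1.05% and 1.60% (median 1.14%). The 48 hr range reached 1.72% in clone E3, just above the lowest WT mESC library, and the 96 hr range lay below every mESC library. The 54 nuclear members held between 0.339% and 0.350% in WT mESCs, 0.375% and 0.394% in KO mESCs, 0.316% and 0.355% at 48 hr and 0.310% and 0.350% at 96 hr. The KO mESC libraries were thus the highest in the nuclear share and did not overlap with any other group.

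**Figure D1:**
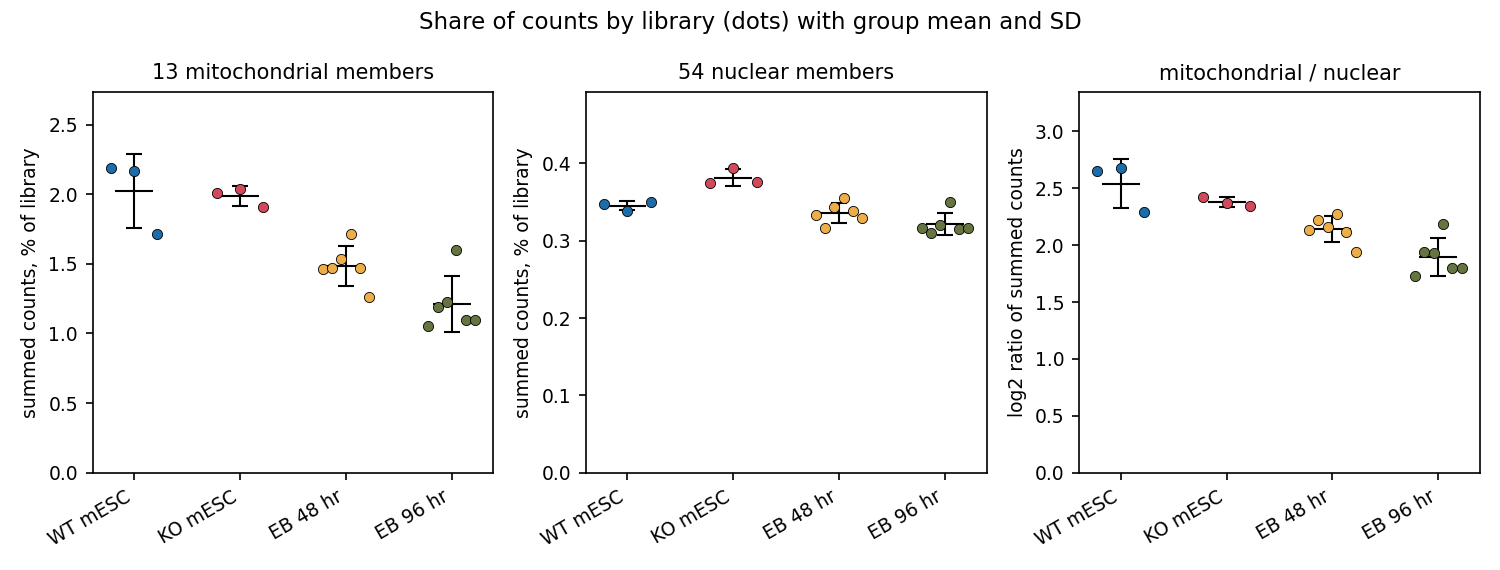
Share of library counts (%, left and middle) and log2 ratio of summed counts (right) of the 13 mitochondrial and 54 nuclear members, with libraries as dots, the group mean as a line and the SD as a bar. Mean mitochondrial shares were 2.02%, 1.99%, 1.49% and 1.21% from left to right, whereas mean nuclear shares were 0.346%, 0.382%, 0.336% and 0.322%.

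The log2 ratio of mitochondrial to nuclear member counts was 2.54 ± 0.22 (SD, n = 3) in WT mESCs, 2.38 ± 0.04 (SD, n = 3) in KO mESCs, 2.14 ± 0.11 (SD, n = 6) at 48 hr and 1.90 ± 0.17 (SD, n = 6) at 96 hr. In clone E3 the ratio was 2.27 at 48 hr and 2.19 at 96 hr, the highest of its stage both times. The mitochondrial rRNAs, which are no members, held 0.107% to 0.148% of counts in mESCs, 0.0544% to 0.0869% at 48 hr and 0.0397% to 0.0588% at 96 hr. These shares are descriptions and were not tested.

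mt-Nd1 and mt-Nd2, the first genes after the rRNAs on the mitochondrial genome, fell at both steps and were the mitochondrial members with the largest drop from mESCs to 96 hr. mt-Nd1, a membrane subunit of complex I (chromosome M, 2751 to 3707), had 5229, 4580 and 3540 CPM in WT mESCs, 4410, 4823 and 4323 CPM in KO mESCs, 2532 to 3258 CPM at 48 hr (median 2853) and 1648 to 2473 CPM at 96 hr (median 1769). No range of a stage overlapped with that of another stage. The log2 fold change was -0.65 ± 0.10 (SE) from mESCs to 48 hr (adjusted p = 0.000143, edgeR quasi-likelihood test with Benjamini-Hochberg adjustment) and -0.60 ± 0.10 from 48 to 96 hr (edgeR adjusted p = 0.000589). mt-Nd2 (3914 to 4951) ran from 1795 to 2512 CPM in mESCs, 1206 to 1406 CPM at 48 hr and 741.7 to 1072 CPM at 96 hr, again without overlap, with log2 fold changes of -0.70 ± 0.09 (edgeR adjusted p = 2.45e-05) and -0.55 ± 0.09 (edgeR adjusted p = 0.000528). From mESCs to 96 hr both fell by 1.25 on the log2 scale (SE 0.10 and 0.09, edgeR adjusted p = 1.26e-07 for mt-Nd1 and 4.68e-08 for mt-Nd2), and they were the only mitochondrial members past a log2 fold change of 1 in this comparison.

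The other mitochondrial members with mostly unique sequence had smaller log2 fold changes. mt-Co1, the catalytic subunit of cytochrome c oxidase (5328 to 6872), ran from 7435 to 9082 CPM in mESCs, 5396 to 7315 CPM at 48 hr and 4432 to 7115 CPM at 96 hr, where clone E3 at 7115 CPM lay above the other 5 (at most 5420). Its log2 fold change was -0.37 ± 0.10 to 48 hr (edgeR adjusted p = 0.00871) and -0.28 ± 0.10 from 48 to 96 hr (edgeR adjusted p = 0.0417). mt-Nd5, a membrane subunit of complex I (11742 to 13565), ran from 1376 to 1688 CPM in mESCs, 1092 to 1394 CPM at 48 hr and 883.0 to 1245 CPM at 96 hr, with log2 fold changes of -0.27 ± 0.08 (edgeR adjusted p = 0.0194) and -0.36 ± 0.08 (edgeR adjusted p = 0.00433). mt-Cytb, the cytochrome b of complex III (14145 to 15288), was not called to 48 hr (log2 fold change -0.14 ± 0.09, edgeR adjusted p = 0.263) and then fell by 0.32 ± 0.09 (edgeR adjusted p = 0.0151), from 2162 to 2563 CPM at 48 hr to 1577 to 2354 CPM at 96 hr. mt-Nd6 (13552 to 14070), the only member encoded on the opposite strand, ran from 47.0 to 67.3 CPM in mESCs and 30.2 to 54.7 CPM at 96 hr and was called only between those stages (-0.47 ± 0.14, edgeR adjusted p = 0.0147).

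mt-Nd4, whose windows are 60.0% shared, had log2 fold changes of -0.21 ± 0.08 (edgeR adjusted p = 0.0691) and -0.36 ± 0.08 (edgeR adjusted p = 0.00460). The rRNAs at the start of the mitochondrial transcripts, mt-Rnr1 and mt-Rnr2, had log2 fold changes of -1.10 ± 0.13 and -1.51 ± 0.13 from mESCs to 96 hr (edgeR adjusted p = 3.06e-06 and 1.46e-07). In the order of the mitochondrial genome and over the members with at most 60.0% shared windows other than mt-Atp8, the log2 fold change from mESCs to 96 hr was thus -1.25 for mt-Nd1, -1.25 for mt-Nd2, -0.65 for mt-Co1, -0.57 for mt-Nd4, -0.63 for mt-Nd5, -0.47 for mt-Nd6 and -0.46 for mt-Cytb. The standard errors of neighbours from mt-Co1 to mt-Cytb overlap, and differences between genes were not tested.

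**Figure D2:**
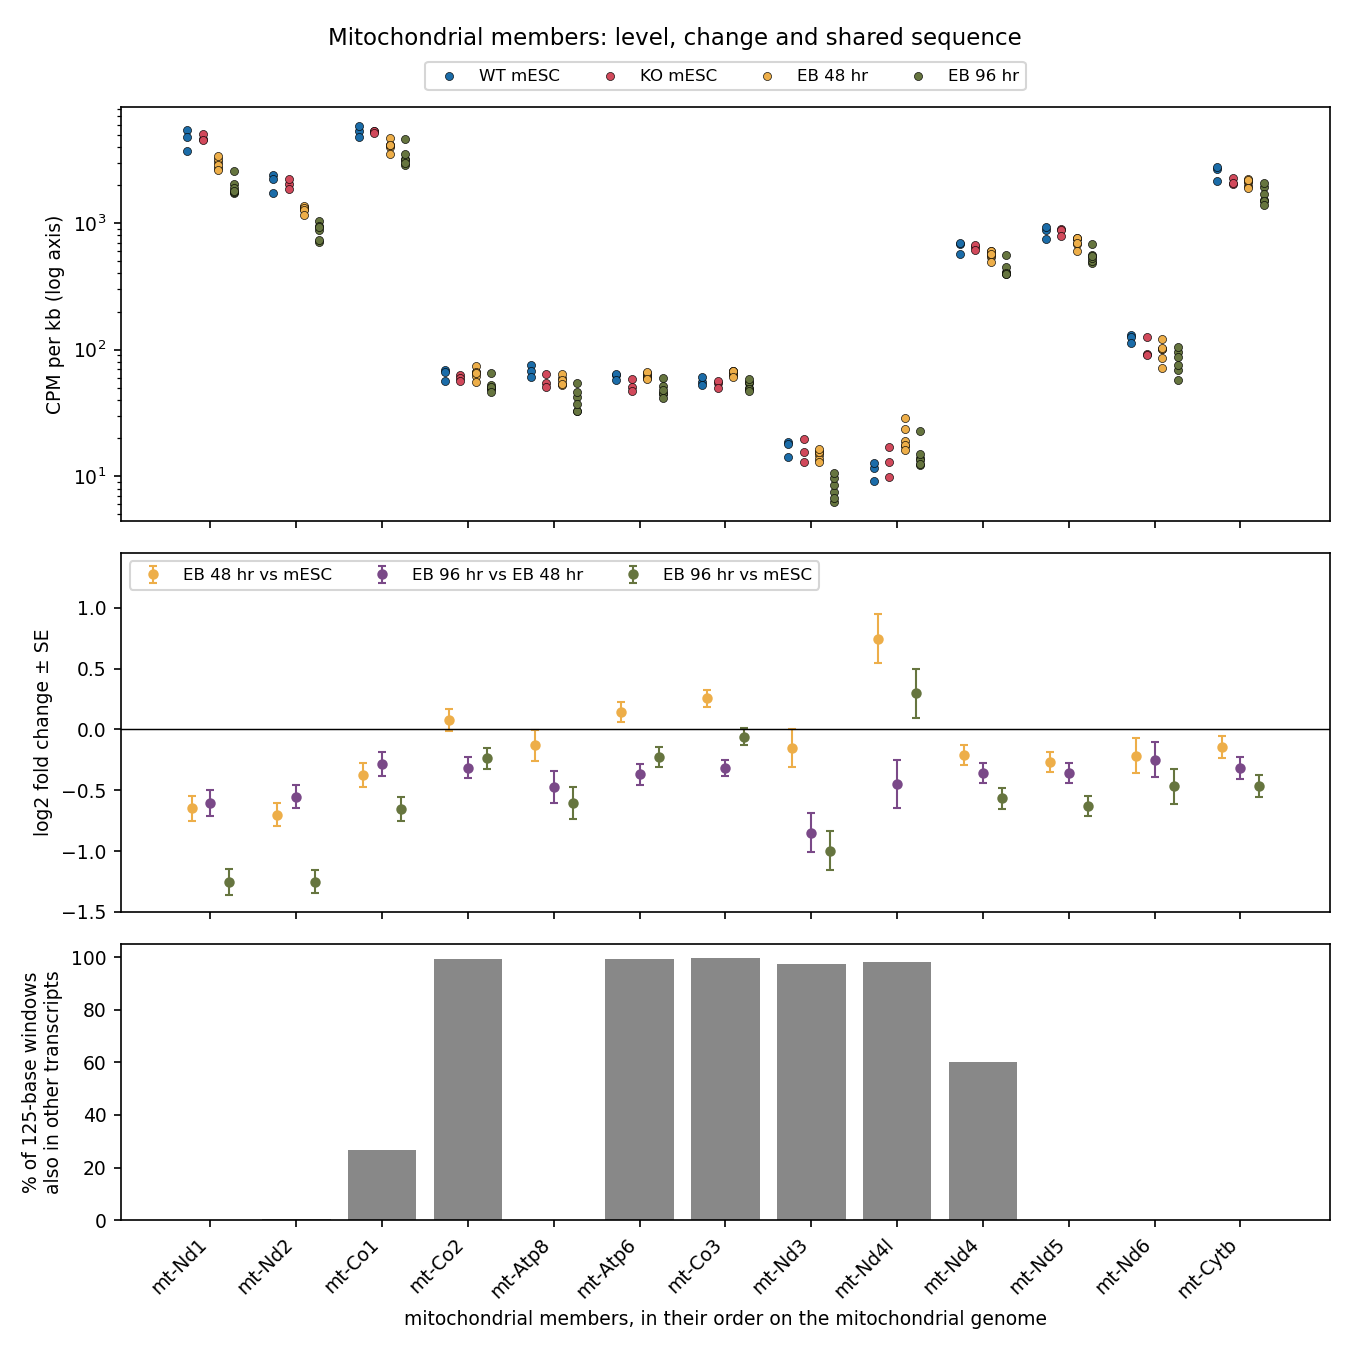
The 13 mitochondrial members in genome order, with CPM per kb of exon in each library (top, log axis, colours are groups), log2 fold change ± SE of the stage comparisons (middle) and the share of 125-base windows found in other annotated transcripts (bottom, %). mt-Co2, mt-Atp8, mt-Atp6, mt-Co3, mt-Nd3 and mt-Nd4l lie below 100 CPM per kb, and mt-Nd1 and mt-Nd2 have the lowest log2 fold changes to 96 hr, both -1.25. mt-Nd6, without shared windows, has means of 113 CPM per kb in mESCs, 97.1 at 48 hr and 81.7 at 96 hr.

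mt-Atp8 and the 5 mitochondrial members with nearly all windows shared were counted at low levels, and of these mt-Co3 and mt-Nd4l were called higher at 48 hr. Mean levels in mESCs were 5310 CPM per kb for mt-Co1 and 4686 CPM per kb for mt-Nd1, but 61.7 for mt-Co2, 62.5 for mt-Atp8, 56.8 for mt-Atp6, 54.8 for mt-Co3, 16.5 for mt-Nd3 and 12.2 for mt-Nd4l. A low level was not limited to these genes, since mt-Nd6, without shared windows, was at 113 CPM per kb. mt-Co3, a subunit of complex IV (8607 to 9390), ran from 38.7 to 47.3 CPM in mESCs and 48.0 to 53.7 CPM at 48 hr, and its log2 fold change was 0.26 ± 0.07 (edgeR adjusted p = 0.00836). mt-Nd4l (9877 to 10173) rose by 0.75 ± 0.20 (edgeR adjusted p = 0.00896), from 2.71 to 5.10 CPM to 4.77 to 8.55 CPM. Their chromosome 1 copies were counted at similar levels and were also higher at 48 hr, with log2 fold changes of 0.31 ± 0.07 for Gm28437, the copy of mt-Co3 (edgeR adjusted p = 0.00481), and 0.83 ± 0.12 for Gm10222, the copy of mt-Nd4l (edgeR adjusted p = 7.33e-05). Gm29216, the copy of mt-Co1, was higher too (0.45 ± 0.11, edgeR adjusted p = 0.00375), though mt-Co1 was lower. So were Gm28439 of mt-Nd4 (0.36 ± 0.12, edgeR adjusted p = 0.0279) and Gm10925 of mt-Atp6 (0.29 ± 0.08, edgeR adjusted p = 0.0149), though neither mitochondrial gene was called. Gm28661 of mt-Co2 and Gm28438 of mt-Nd3 were not called (0.21 ± 0.08 and -0.32 ± 0.15, edgeR adjusted p = 0.0619 and 0.127). Gm10925, the copy of mt-Atp6, held 44.1 to 74.3 CPM over all libraries against 28.2 to 45.4 CPM for mt-Atp6 itself. A read that lies within a shared window cannot be told apart from a read of the copy. The windows stand for single reads, whereas the libraries were sequenced in pairs, and pairs that reach outside the shared part were not considered. A direction for mt-Co2, mt-Atp6, mt-Co3, mt-Nd3 and mt-Nd4l thus holds only for the reads that could be placed.

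Counted over all 13, 2 mitochondrial members were higher and 4 lower at 48 hr than in mESCs. Of all 25318 genes tested in this comparison, 15.6% were called higher and 12.7% lower (called means an edgeR adjusted p under 0.05). From 48 to 96 hr all 13 had a negative log2 fold change (median -0.36), 11 were called lower and 0 higher, against 14% of all genes lower and 14.1% higher. Neither edgeR nor DESeq2 called any of the 13 higher in that comparison, and 12 reached an unadjusted p under 0.05. Without clone E3 at 96 hr, 12 were called lower, and without clone E14 at 96 hr, 8. From mESCs to 96 hr, 11 were lower and 0 higher (DESeq2 0 higher, unadjusted p under 0.05 for 11), against 19.6% of all genes lower and 23.6% higher. Without clone E3 at 96 hr, 11 were lower here too. Over all fits that left out a single library, between 8 and 11 were lower from mESCs to 96 hr, so this count also depended on single libraries. Among mt-Nd1, mt-Nd2, mt-Nd5, mt-Nd6 and mt-Cytb, the 5 members with almost no shared windows and no copy alongside, 3, 4 and 5 were called lower in these comparisons. The 3 comparisons share libraries, so they are not independent of each other.

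The nuclear core subunits of complex I, which carry the flavin and iron-sulphur clusters, did not move together. Ndufs7 (chromosome 10), which holds the last iron-sulphur cluster before ubiquinone, had 29.1, 29.5 and 30.6 CPM in WT mESCs, 33.3, 33.7 and 34.3 CPM in KO mESCs, 41.8 to 46.4 CPM at 48 hr (median 44.1) and 35.6 to 41.7 CPM at 96 hr (median 39.1). Every 48 hr library was above every mESC and every 96 hr library. It rose by 0.48 ± 0.06 on the log2 scale to 48 hr (edgeR adjusted p = 7.24e-06) and fell by 0.18 ± 0.06 from 48 to 96 hr (edgeR adjusted p = 0.0234). Ndufs8 and Ndufv1, an iron-sulphur subunit and the subunit that binds NADH and FMN, lie close together on chromosome 19 (starts 3908863 and 4007384). Ndufv1 ran from 106.1 to 126.3 CPM in mESCs, 135.1 to 155.5 CPM at 48 hr and 101.8 to 124.7 CPM at 96 hr, with log2 fold changes of 0.35 ± 0.06 (edgeR adjusted p = 0.000348) and -0.41 ± 0.06 (edgeR adjusted p = 0.000254). Ndufs8 ran from 29.0 to 42.8 CPM, 42.5 to 52.6 CPM and 30.8 to 42.8 CPM, with log2 fold changes of 0.47 ± 0.09 (edgeR adjusted p = 0.000455) and -0.35 ± 0.09 (edgeR adjusted p = 0.00685).

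Ndufv2, the partner of Ndufv1 in the NADH-binding module, went the other way. It ran from 101.9 to 112.1 CPM in mESCs and 74.7 to 85.5 CPM at 48 hr, a log2 fold change of -0.39 ± 0.06 (edgeR adjusted p = 0.000130), and stayed between 75.1 and 92.8 CPM at 96 hr, where the step from 48 hr was not called (0.06 ± 0.06, edgeR adjusted p = 0.519). Ndufs1, the largest subunit of complex I, was at 197.4 to 217.3 CPM in mESCs and 179.5 to 195.0 CPM at 48 hr (log2 fold change -0.13 ± 0.05, edgeR adjusted p = 0.0919). It fell by 0.40 ± 0.05 to 126.8 to 160.5 CPM at 96 hr (edgeR adjusted p = 9.90e-05), with no overlap with 48 hr. Of its exon bases 498 also belong to Eef1b2 or Ino80dos. Ndufs3 was called in no comparison (log2 fold changes from -0.10 to 0.00). Over the 7 core subunits, 3 were higher and 1 lower at 48 hr than in mESCs, against 15.6% of all genes higher and 12.7% lower, so the lower count was near the background. From 48 to 96 hr, 5 were lower, against 14% of all genes.

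Among the 29 accessory subunits, which surround the core and have mostly structural roles, 4 were higher and 12 lower at 48 hr than in mESCs (median log2 fold change -0.16). Of all genes 15.6% were higher and 12.7% lower, and of genes that averaged at least 50 counts per library 23.8% and 18.7%. The higher count (13.8% of the 29) was thus near the share of all genes and below that of well-counted genes. Ndufb4 had the largest drop, from 15.2 to 19.6 CPM in mESCs to 7.08 to 11.1 CPM at 48 hr, a log2 fold change of -0.75 ± 0.11 (edgeR adjusted p = 8.82e-05), and remained at 8.79 to 11.3 CPM at 96 hr. Ndufab1, the mitochondrial acyl carrier protein, ran from 89.2 to 100.2 CPM in mESCs and 55.6 to 68.6 CPM at 48 hr (-0.59 ± 0.07, edgeR adjusted p = 6.83e-06). Ndufc1 fell by 0.62 ± 0.06 to 48 hr (edgeR adjusted p = 1.19e-06) and then rose by 0.24 ± 0.06 (edgeR adjusted p = 0.00802), with 37.9 to 43.1, 24.3 to 26.7 and 29.0 to 32.1 CPM at the 3 stages. Ndufb6 fell by 0.51 ± 0.07 to 48 hr (edgeR adjusted p = 4.92e-05) and shares 257 exon bases with Smim27. None of these 4 had overlapping ranges in mESCs and at 48 hr.

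From 48 to 96 hr, 7 accessory subunits were lower and 2 higher, against 14% and 14.1% of all genes. Ndufv3, a small subunit of the NADH-binding module, was the accessory subunit with the largest increase. It ran from 30.6 to 42.5 CPM at 48 hr and 46.2 to 59.4 CPM at 96 hr, a log2 fold change of 0.52 ± 0.10 (edgeR adjusted p = 0.00144), after a fall of 0.38 ± 0.10 from mESCs to 48 hr (edgeR adjusted p = 0.00792), so that 96 hr was not called against mESCs (0.14 ± 0.10, edgeR adjusted p = 0.292). From mESCs to 96 hr, 16 accessory subunits were lower and 3 higher, against 19.6% and 23.6% of all genes. Ndufb10 ran from 50.5 to 65.6 CPM in mESCs and 31.1 to 43.7 CPM at 96 hr (-0.60 ± 0.09, edgeR adjusted p = 2.60e-05). Those higher at 96 hr were Ndufb7, Ndufa7 (0.30 ± 0.08, edgeR adjusted p = 0.00606) and Ndufa2 (0.27 ± 0.05, edgeR adjusted p = 0.000518).

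Ndufb7 and Ndufa13, both accessory subunits on chromosome 8, had wide ranges among EB clones. Ndufb7 ran from 55.5 to 93.1 CPM at 48 hr (median 68.1) and from 48.2 to 83.6 CPM at 96 hr (median 65.4), against 36.0, 34.5 and 36.1 CPM in WT mESCs and 58.1, 48.5 and 60.1 CPM in KO mESCs. Its log2 fold change was 0.69 ± 0.15 to 48 hr (edgeR adjusted p = 0.00255) and 0.56 ± 0.15 to 96 hr (edgeR adjusted p = 0.00729). Ndufa13, also known as GRIM-19, ran from 55.1 to 99.7 CPM at 48 hr and 47.7 to 96.4 CPM at 96 hr and was called in no stage comparison (edgeR adjusted p of 0.148 to 48 hr, 0.797 from 48 to 96 hr and 0.207 to 96 hr).

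The assembly factors build complex I and are not part of it. Ndufaf4, Ndufaf5 and Ndufaf6 were lower at 48 hr than in mESCs, by 0.43 ± 0.11, 0.46 ± 0.09 and 0.47 ± 0.14 on the log2 scale, against 12.7% of all genes lower. Ndufaf2 and Ndufaf1 were the 2 of 8 lower from 48 to 96 hr, against 14% of all genes. Ndufaf2 ran from 17.4 to 21.1 CPM at 48 hr and 12.8 to 16.6 CPM at 96 hr (-0.40 ± 0.08, edgeR adjusted p = 0.00210), and 1955 of its 2978 exon bases also belong to B230220B15Rik.

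The step at which complex III subunits were called lower was not the same for each gene, though differences between genes were not tested. Uqcrc1 (chromosome 9), a core protein of the matrix arm, had 240.7, 235.2 and 239.9 CPM in WT mESCs, 299.0, 282.8 and 300.5 CPM in KO mESCs, 220.1 to 254.7 CPM at 48 hr and 163.8 to 201.8 CPM at 96 hr. The 48 hr libraries lay around the WT mESC libraries, and the 96 hr libraries lay below all others. Its log2 fold change was -0.14 ± 0.06 to 48 hr (edgeR adjusted p = 0.0856) and -0.39 ± 0.06 from 48 to 96 hr (edgeR adjusted p = 0.000239). Uqcrfs1, the Rieske iron-sulphur protein that passes electrons towards cytochrome c1, took its step earlier. It ran from 104.2 to 116.0 CPM in mESCs and 77.9 to 82.2 CPM at 48 hr (-0.46 ± 0.05, edgeR adjusted p = 1.70e-06), and was at 77.9 to 89.8 CPM at 96 hr (0.06 ± 0.05 from 48 hr, edgeR adjusted p = 0.364).

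Uqcrc2, the other core protein, fell by 0.22 ± 0.05 to 48 hr (edgeR adjusted p = 0.00323), and 504 of its exon bases also belong to Pdzd9. Uqcrb, which helps to form the quinone site, had the largest fall of complex III to 96 hr, from 104.2 to 137.3 CPM in mESCs to 68.1 to 83.9 CPM (-0.69 ± 0.09, edgeR adjusted p = 1.16e-05). Uqcrq and Uqcr10, small membrane subunits, fell from 48 to 96 hr by 0.41 ± 0.12 and 0.40 ± 0.10 (edgeR adjusted p = 0.0226 and 0.00681). Uqcr11 alone rose, from 52.6 to 72.6 CPM in mESCs to 74.6 to 93.1 CPM at 48 hr (0.41 ± 0.08, edgeR adjusted p = 0.00125), and was not called between 48 and 96 hr (edgeR adjusted p = 0.0570). At 96 hr against mESCs, 7 of the 8 nuclear complex III subunits were lower (median log2 fold change -0.42), against 19.6% of all genes.

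**Figure D3:**
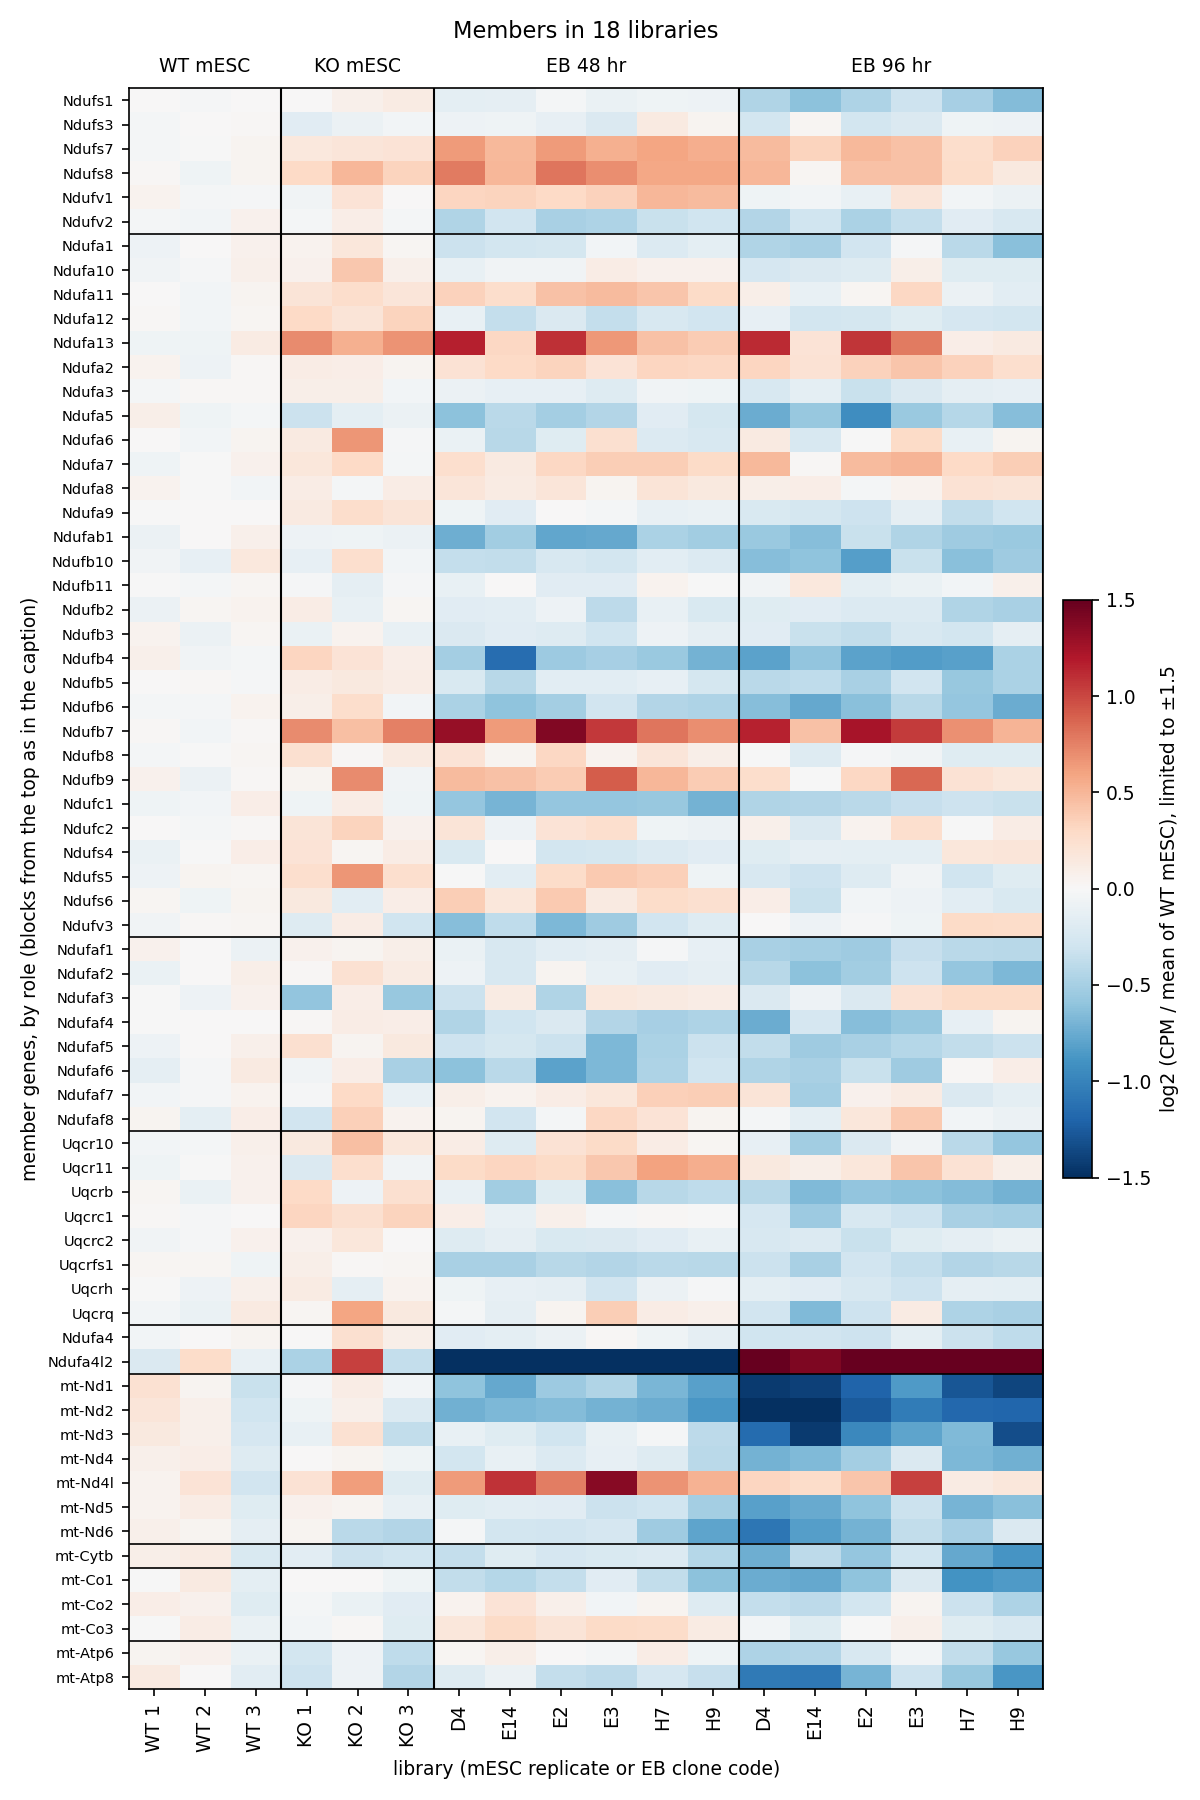
Level of the members (rows) in each of the 18 libraries (columns) as log2 of CPM over the WT mESC mean, with colours limited to ±1.5. Blocks from the top are complex I core, accessory and assembly genes, nuclear complex III, the Ndufa4 pair, and mitochondrial members of complexes I, III, IV and V. Ndufa4l2 is lowest in all 6 libraries at 48 hr and highest in all 6 at 96 hr, and mt-Nd1 and mt-Nd2 darken from 48 to 96 hr.

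Over all 54 nuclear members, 8 were higher and 21 lower at 48 hr than in mESCs (median log2 fold change -0.14, against 15.6% and 12.7% of all genes). From 48 to 96 hr, 3 were higher and 18 lower (median -0.12, against 14.1% and 14%), and the lower count was 22 without clone E3 at 96 hr, 11 without clone E14 at 96 hr, 11 in a fit of these 2 stages alone and 10 when libraries were scaled by their totals. From mESCs to 96 hr, 5 were higher and 30 lower (median -0.22, against 23.6% and 19.6%), and 31 were lower without clone E3 at 96 hr. All members averaged at least 50 counts per library, and well-counted genes were called more often. Of the genes at or above that average, 23.8% were higher and 18.7% lower at 48 hr than in mESCs, 20% higher and 19.9% lower from 48 to 96 hr, and 32.5% higher and 25.7% lower from mESCs to 96 hr. The median over all genes tested was 0.03, -0.03 and 0.03 in these comparisons.

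Ndufa4 and Ndufa4l2, paralogues long listed with complex I and known as a subunit of cytochrome c oxidase (Ndufa4) and as its hypoxia-inducible relative (Ndufa4l2), moved by very different amounts. Ndufa4 ran from 156.7 to 190.5 CPM in mESCs, 144.2 to 163.5 CPM at 48 hr and 123.8 to 146.6 CPM at 96 hr, and its log2 fold change was -0.15 ± 0.05 to 48 hr (edgeR adjusted p = 0.0389) and -0.19 ± 0.05 from 48 to 96 hr (edgeR adjusted p = 0.0137). Ndufa4l2 (chromosome 10, 127514967 to 127517154) had 3.39, 4.79 and 3.66 CPM in WT mESCs, 2.85, 8.02 and 3.08 CPM in KO mESCs, 0.101 to 0.982 CPM at 48 hr (median 0.231) and 10.4 to 31.0 CPM at 96 hr (median 21.1). All 48 hr libraries were below, and all 96 hr libraries above, every mESC library. The fitted log2 fold change was -3.34 ± 0.48 to 48 hr (edgeR adjusted p = 5.38e-05) and 5.64 ± 0.51 from 48 to 96 hr (edgeR adjusted p = 6.20e-06). The 48 hr level rests on 3 to 31 counts per library (75 in all), so the fold values depend on the fit's handling of low counts.

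**Figure D4:**
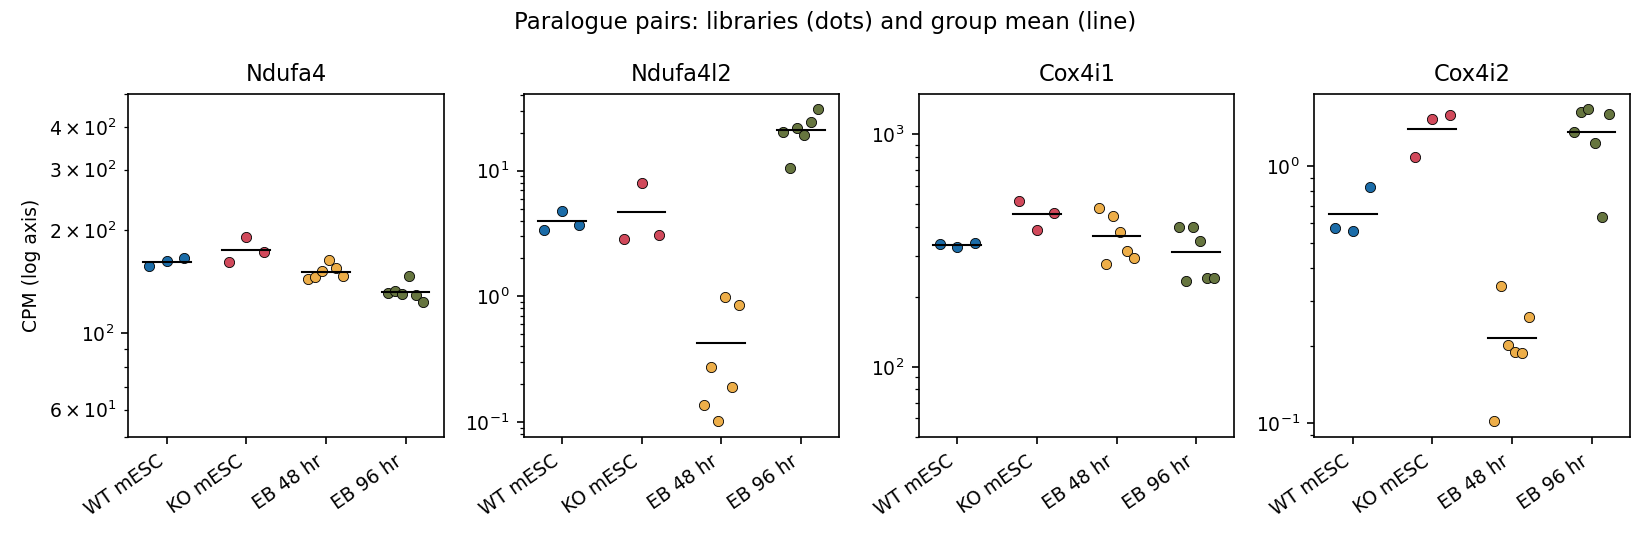
CPM (log axes with their own ranges) of Ndufa4, Ndufa4l2 and the complex IV paralogues Cox4i1 and Cox4i2 in each library (dots), with the group mean as a line. Ndufa4l2 and Cox4i2 are lowest at 48 hr, with medians of 0.231 and 0.196 CPM, and higher again in all 6 libraries at 96 hr.

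Cox4i2, another known hypoxia-inducible isoform, of complex IV, had 0.558 to 1.58 CPM in mESCs, 0.102 to 0.342 CPM at 48 hr and 0.634 to 1.66 CPM at 96 hr. Its log2 fold change was -2.14 ± 0.29 to 48 hr (edgeR adjusted p = 2.86e-05) and 2.64 ± 0.29 from 48 to 96 hr (edgeR adjusted p = 1.82e-05). The 48 hr level of Cox4i2 rests on 3 to 10 counts per library (38 in all), so these values too depend on the handling of low counts. Within mESCs it ran from 0.558 to 0.825 CPM in WT and from 1.09 to 1.58 CPM in KO without overlap, but was not called (1.09 ± 0.28, edgeR adjusted p = 0.0644). Its common isoform Cox4i1 was at 234.5 to 516.7 CPM over all libraries.

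In mESCs, loss of IκBα came with few calls among the members. In all, 4 of 54 nuclear members were higher in KO than in WT and 0 lower, and 0 of 13 mitochondrial members were called, against 3.09% of the 21843 genes tested higher and 1.69% lower. By DESeq2 the counts were 5 higher and 0 lower for nuclear members and 0 for mitochondrial members, and 11 nuclear and 2 mitochondrial members reached an unadjusted p under 0.05. The sign was positive for 45 of 54 nuclear members (median log2 fold change 0.09, all genes 0.01) and for 3 of 13 mitochondrial members (median -0.07). Of the genes that averaged at least 50 counts per library, as all members did, 4.69% were higher and 2.47% lower. The mESC groups also differed in marker levels. The 5 primed epiblast markers summed to between 632 and 1000 CPM in WT and 378 and 452 CPM in KO, without overlap. The 4 endoderm markers summed to between 2.64 and 3.66 CPM in WT and to 21.7, 2.82 and 29.1 CPM in KO libraries 1, 2 and 3. The part of these markers in the result was not tested.

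Ndufb7 and Ndufa13 had the largest differences. Ndufa13 (chromosome 8, 69894180 to 69902558) was at 42.6, 42.3 and 48.3 CPM in WT and 72.4, 64.5 and 70.7 CPM in KO mESCs, and Ndufb7 (83566671 to 83571626) at the levels given above, with no overlap for either gene. The log2 fold change was 0.64 ± 0.09 for Ndufa13 (edgeR adjusted p = 0.0103) and 0.64 ± 0.10 for Ndufb7 (edgeR adjusted p = 0.0154). The genes of their 10 Mb windows had median log2 fold changes of 0.45 and 0.47, and the genes of chromosome 8 a median of 0.39. With an offset for each window, neither was called (0.18, edgeR adjusted p = 0.245 for Ndufa13, and 0.15, edgeR adjusted p = 0.252 for Ndufb7). Of the exon bases of Ndufa13, 375 also belong to Tssk6.

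Uqcrc1 and Ndufs8 lie in windows whose genes did not shift. Uqcrc1, with the CPM given above, rose by 0.30 ± 0.06 (edgeR adjusted p = 0.0340), its window had a median of -0.01, and it was called with the offset (0.32, edgeR adjusted p = 0.0269). Ndufs8 had 30.6, 29.0 and 31.2 CPM in WT and 37.2, 42.8 and 38.1 CPM in KO mESCs, a log2 fold change of 0.38 ± 0.08 (edgeR adjusted p = 0.0441), a window median of 0.01 and 0.36 with the offset (edgeR adjusted p = 0.0423). All 4 calls were sensitive to single libraries, and the number of nuclear members called higher was 0 without WT library 2 or without WT library 3, 1 without WT library 1, KO library 1 or KO library 3, and 9 without KO library 2. KO library 2 was the highest of the 6 in many nuclear members. Among them were Ndufb9 with 44.0 CPM, Ndufa6 with 87.9 CPM and Uqcrq with 106.3 CPM, singled out after their values were seen. Ndufb9 and Ndufa6 both lie on chromosome 15. The genes of their windows had median log2 fold changes of 0.18 and 0.21, and the genes of chromosome 15 a median of 0.18. The window of Uqcrq had a median of -0.02. Whether genes of chromosome 15 were shifted in KO library 2 alone was not tested.

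**Figure D5:**
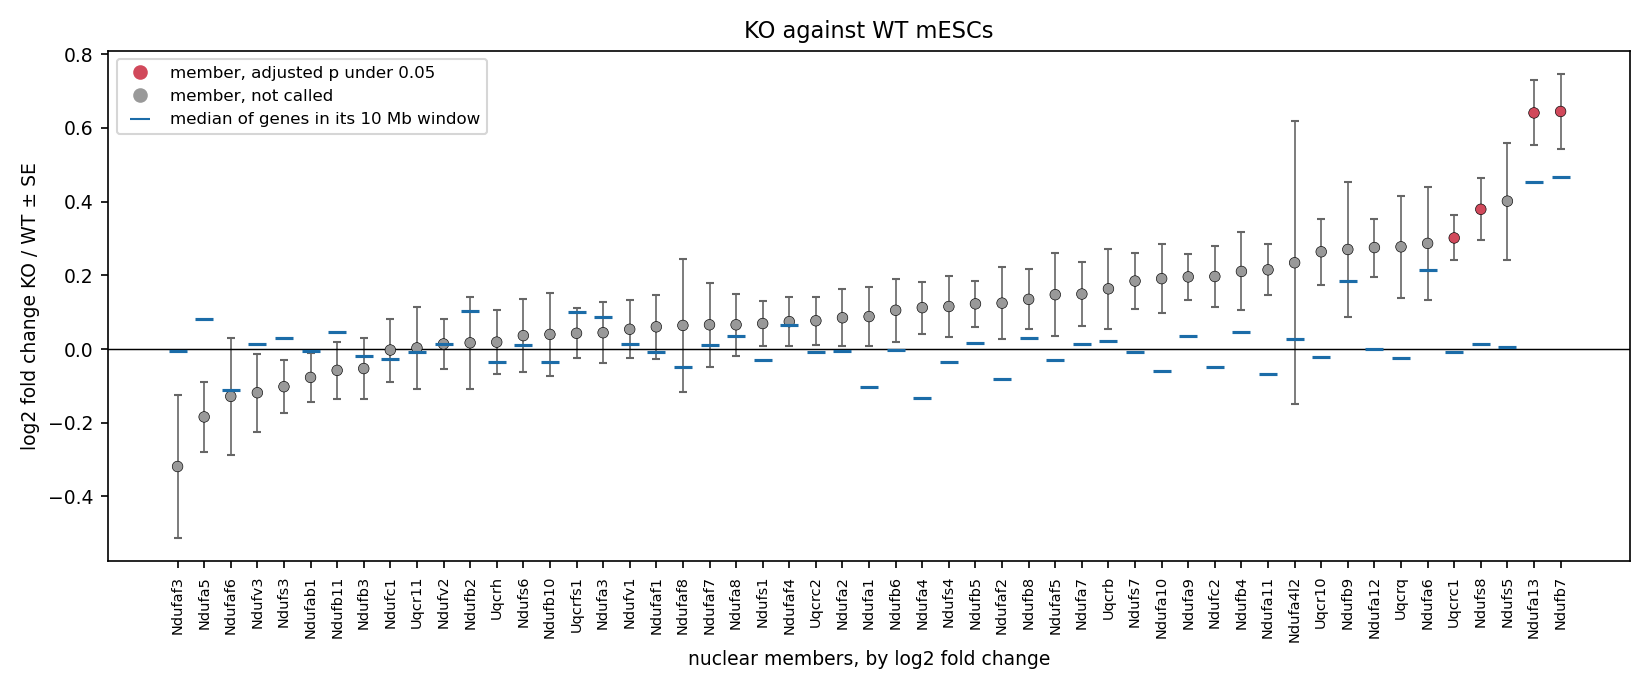
Log2 fold change ± SE of KO against WT mESCs for the nuclear members, sorted, with calls in red and the median log2 fold change of genes in the member's 10 Mb window as a blue line. The window medians of Ndufa13 and Ndufb7 are 0.45 and 0.47, whereas those of Uqcrc1 and Ndufs8 are -0.01 and 0.01.

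None of the mitochondrial members was called between WT and KO mESCs in the edgeR fit, as counted above. mt-Nd1 had a log2 fold change of 0.02 ± 0.13 (edgeR adjusted p = 0.951), mt-Co1 of -0.02 ± 0.08 (edgeR adjusted p = 0.927) and mt-Nd5 of 0.00 ± 0.09 (edgeR adjusted p = 0.998). mt-Cytb had the lowest value among the members without shared windows other than mt-Atp8, at 3072, 3159 and 2471 CPM in WT and 2591, 2323 and 2361 CPM in KO (-0.26 ± 0.10, edgeR adjusted p = 0.185). WT library 3, with the lowest mitochondrial share of the mESC libraries, was the lowest WT library in all 13 mitochondrial members.

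Other genes of the respiratory chain were counted from lists by function. The counts are to be read against 15.6% of all genes higher and 12.7% lower at 48 hr than in mESCs, and 14.1% higher and 14% lower from 48 to 96 hr. Of genes that averaged at least 50 counts per library, which were called more often, 23.8% were higher and 18.7% lower at 48 hr. From 48 to 96 hr, 20% of such genes were higher and 19.9% lower. Of 15 nuclear subunits of complex IV, 1 was higher and 5 lower at 48 hr than in mESCs, and 1 was higher (Cox4i2) and 1 lower (Cox7c, -0.42 ± 0.06, edgeR adjusted p = 0.000241) from 48 to 96 hr. Of 15 nuclear subunits of the ATP synthase, 4 were higher and 6 lower at 48 hr, and 9 were lower from 48 to 96 hr. Atp5g1, a gene of the proton-carrying c subunit, had the largest change among them from 48 to 96 hr, with 167.3 to 222.8 CPM at 48 hr and 93.3 to 159.5 CPM at 96 hr (-0.74 ± 0.12, edgeR adjusted p = 0.000330). Of 8 complex II genes, 1 was higher and 3 lower at 48 hr, with Sdhaf4, an assembly factor, at -1.09 ± 0.13 (edgeR adjusted p = 1.01e-05). Of 7 further complex III genes, 2 were higher and 3 lower at 48 hr. From 48 to 96 hr edgeR called 0 of the complex II genes and 0 of these complex III genes, and 0 of either list reached an unadjusted p under 0.05. Of 9 complex I assembly factors with other names, 2 were higher and 5 lower at 48 hr, where Tmem70 fell by 0.82 ± 0.10 and Timmdc1 by 0.72 ± 0.09 (edgeR adjusted p = 7.75e-06 and 2.25e-05). Of Cycs and Hccs, cytochrome c and the enzyme that attaches its haem, Hccs was lower at 48 hr (-0.58 ± 0.09, edgeR adjusted p = 8.62e-05).

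Most listed genes that act on mitochondrial RNA were lower at 96 hr than at 48 hr. Of 19 genes for the stability and processing of mitochondrial RNA, 5 were higher and 5 lower at 48 hr, and 1 was higher and 13 lower from 48 to 96 hr (median log2 fold change -0.27, against 14% of all genes lower). Elac2, which cuts the ends of tRNAs, ran from 90.1 to 114.9 CPM in mESCs, 120.0 to 151.6 CPM at 48 hr and 64.4 to 104.4 CPM at 96 hr, with -0.73 ± 0.10 from 48 to 96 hr (edgeR adjusted p = 0.000110). Tbrg4, a FASTK family protein, rose by 0.77 ± 0.07 and then fell by 0.53 ± 0.07 (edgeR adjusted p = 2.80e-07 and 5.16e-05), and Rexo2, a mitochondrial exonuclease, fell by 0.52 ± 0.11 (edgeR adjusted p = 0.00290) at the second step. Of 15 genes for replication and transcription of mitochondrial DNA, 2 were higher and 6 lower at 48 hr, and 1 was higher (Polg) and 7 lower from 48 to 96 hr, against the shares of all genes given above.

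Of the 12 listed regulators of nuclear respiratory genes, 3 were higher and 3 lower at 48 hr, against 15.6% and 12.7% of all genes. Nrf1 rose by 0.48 ± 0.06 and Ppargc1b by 0.77 ± 0.17 (edgeR adjusted p = 1.34e-05 and 0.00283). Gabpa, the DNA-binding subunit of GABP, ran from 240.4 to 278.1 CPM in mESCs, 174.0 to 225.2 CPM at 48 hr and 113.7 to 163.4 CPM at 96 hr, and fell at both steps (-0.41 ± 0.08 and -0.46 ± 0.08, edgeR adjusted p = 0.00124 and 0.000826). In KO against WT mESCs the called genes of all these lists, members aside, were Yy1 and Tefm. Yy1, a transcription factor gene on chromosome 12, had 154.2, 152.5 and 154.7 CPM in WT and 72.6, 101.3 and 76.8 CPM in KO mESCs (log2 fold change -0.88 ± 0.11, edgeR adjusted p = 0.00832, and -0.52 with the window offset, edgeR adjusted p = 0.0306). Tefm, the elongation factor of mitochondrial transcription, had -0.47 ± 0.11 (edgeR adjusted p = 0.0474).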

How the data were processed

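RNA-seq counts of 6 mESC and 12 EB libraries were analysed. The authors trimmed reads with Trim Galore 0.6.6, aligned 125-base pairs to GRCm38 with STAR 2.7.8 and used featureCounts (Subread 2.0.1) to count, per gene, the exon reads that mapped uniquely, and the deposited counts are whole numbers without normalization. The strand setting is not given in the sources used here, so genes with shared exon bases (31 of the 67 members) are uncertain. The deposited table of variance-stabilized log2 values was not used. Names and positions came from GENCODE M21 (55141 of 55487 IDs).

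Genes with at least 10 counts summed over the libraries of a fit were tested in R 4.3.3 with edgeR 4.0.16 (TMM scaling, robust quasi-likelihood test, Benjamini-Hochberg adjustment over all genes tested, called at an adjusted p under 0.05). KO against WT used the 6 mESC libraries. Stages used 1 fit of all 18 with 4 group means, the mESC mean being the average of WT and KO. Levels are CPM after TMM over 18 libraries, and per kb uses the union of exons. A standard error is the absolute log2 fold change over the square root of F. P-values of KO against WT measure the spread between clones. Those of the stage comparisons also hold the genotype difference within each EB stage, and the main fit treats all libraries as independent. The same clone codes occur at 48 and 96 hr, and their deviations from the stage mean correlated in every clone (0.396 to 0.734), so a clone block was tried. Libraries of a group always differed by more than sampling noise (lowest ratio of chi-square to its degrees of freedom 5.04). Scripts were tested on simulated data. Members and gene lists were chosen with earlier results of these data known. Named genes were all mitochondrial members, nuclear members called in mESCs, the 5 largest called changes per stage and direction with a mean count of at least 50, the core subunits, Uqcrc1, Uqcrc2, Uqcrfs1, the Ndufa4 pair and at most 3 called genes a list. Other genes named (Ndufaf1, Ndufaf4, Ndufaf5, Ndufaf6, Ndufb9, Ndufa6, Cox4i1) were chosen after their values were seen. Of the list symbols, Coa1, Atp5pb, Mrpp3 and Prorp matched no gene. The values of 1 member are not reported here or drawn in the heatmap and the plot of KO against WT, but it is included in the counts, medians and shares. Alternatives were DESeq2 1.42.0, other scalings, filters and thresholds, leaving out libraries, and offsets for 10 Mb windows. With these totals the spread between clones limits most members, whereas Ndufa4l2 at 48 hr is limited by its counts.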

Additional observations from a re-analysis of the deposited data

Results flagged for a closer look

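In the EB stages, 86 groups of 6 libraries (shares and named members) were searched for a library far from the others, and chance flags about 1 in 20 groups. There were 10 such values, of which 9 belong to clone E3 at 96 hr, so they are not separate events. In clone E3 at 96 hr the mitochondrial members held 1.60% of counts against at most 1.23% in the other clones, and the nuclear members 0.350% against at most 0.321%. The levels in this library were 2473 CPM for mt-Nd1, 7115 CPM for mt-Co1, 44.8 CPM for mt-Co2, 769.4 CPM for mt-Nd4, 6.77 CPM for mt-Nd4l, 124.7 CPM for Ndufv1 and 81.4 CPM for Uqcr11, each the highest of its stage. In the same library the streak and mesoderm markers summed to 14.6 CPM, the lowest at 96 hr, beside 25.6 CPM in clone D4, 24.5 CPM in clone E2 and 608, 920 and 1070 CPM in clones H7, H9 and E14, so a low sum was shared by 3 clones. In clone E3 the pluripotency markers summed to 1700 CPM, beside 1730 CPM in clone D4 and 1520 CPM in clone E2, whose mitochondrial shares were 1.05% and 1.23%. The part of these markers in the result was not tested. The remaining value is Ndufb4 in clone E14 at 48 hr, with 7.08 CPM against 9.62 to 11.1 CPM in the others.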

How the results depend on the processing

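Among the 40 named members, no alternative turned the direction of a called gene. Listed genes that are not members were not part of this count. Of the alternative values for the counts of called members and for the shares 287 stayed close to the reported ones (counts within 1.5 times, shares within 1 SD) and 25 did not. Of the values for the named members, 2671 kept their direction and side of the threshold, 104 kept the direction but lost the call, and 35 gained one. Another 70 had the other sign without being called under either setting (among them Ndufa4l2 in KO against WT without KO library 2, at -0.41 against 0.23). A required log2 fold change over 1 left few calls. In KO against WT it left 0 nuclear members higher, at 48 hr against mESCs 0 nuclear members higher, 1 lower and 0 mitochondrial members higher or lower, at 96 hr against 48 hr 1 nuclear member higher, 0 lower and 0 mitochondrial members lower, and at 96 hr against mESCs 1 nuclear member higher, 0 lower and 2 mitochondrial members lower. From 48 to 96 hr, scaling by library totals gave 6 nuclear members higher and 10 lower, and the fit of only these stages 11 lower. Leaving out 1 library at a time gave 0 to 9 nuclear members higher, 0 to 2 lower and 0 to 1 mitochondrial members lower in KO against WT, the highest values being without KO library 2, and 11 to 22 nuclear members lower from 48 to 96 hr. Among protein-coding counts only, the mean nuclear share in WT mESCs was 0.354%. The cause of these changes was not tested.

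The mESC replicate numbers did not pair the samples, since their deviations correlated at -0.117, -0.00783 and -0.0284, and with the replicate block 2 nuclear members were called higher in KO. The clone block in EBs gave 4 nuclear members higher, 20 lower and 12 mitochondrial members lower from 48 to 96 hr, and moved no count by over 1.5 times. With 3 libraries a group in mESCs and genotype not separated in EBs, small differences may be missed. Ndufa4l2 at 48 hr is limited by few counts, and values of the mitochondrial members with shared windows cover only the reads that could be placed.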

Other observations

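Values of the chromosome 8 members Ndufb7 and Ndufa13 in EBs fell into 2 sets of clones that kept their order at both stages. At 48 hr Ndufb7 was at 87.9, 93.1 and 74.3 CPM in clones D4, E2 and E3 and at 55.5, 61.9 and 57.8 CPM in clones E14, H7 and H9. At 96 hr it was at 79.3, 83.6 and 73.5 CPM and at 48.2, 57.3 and 50.6 CPM in the same order. Ndufa13 was at 99.7, 94.9 and 69.7 CPM in D4, E2 and E3 and at 55.1, 60.1 and 57.8 CPM in the others at 48 hr, and at 96.4, 93.6 and 76.2 CPM against 51.3, 47.7 and 48.6 CPM at 96 hr. Nfkbia, the targeted gene, was at 7.89, 7.31 and 8.65 CPM in D4, E2 and E3 and at 12.6, 14.9 and 10.7 CPM in E14, H7 and H9 at 48 hr, and at 4.97, 7.01 and 8.53 CPM and 19.9, 14.5 and 23.0 CPM in the same orders at 96 hr. The labels give these clones no genotype, and the sets were seen in the values, so no genotype was assigned from them and no test was made.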
